A study of Mus musculus with 2 samples.

Results

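The genes described here are 10 coat proteins and lipases of the lipid droplet, the perilipins Plin1 to Plin5, the triglyceride lipase Pnpla2, its activator Abhd5, its inhibitor G0s2, the monoglyceride lipase Mgll and the droplet fusion protein Cidec. The rule that picks them is a list of symbols and uses no measured value, though the list was drawn up with earlier results of these data known. Each symbol matched 1 gene, so they are 10 of the 55536 annotated genes, and they have 51 of the 141767 annotated transcripts. Total RNA was sequenced from adrenal gland tissue of B6CASTF1/J females aged 2 months, hybrids of a C57BL/6J and a CAST parent. The labels name no treatment. The study has 1 group, with 2 biological replicates that are named animal 2 and animal 1 below, and each library was made from 300 ng of RNA. The labels conflict on the animals: they give each library its own biological replicate number and biosample, but the library text carries the same animal number for both and the donor entry is shared. The libraries held 36234838 expected counts in animal 2 and 34517566 in animal 1, and their gene counts differed by far more than sampling noise (chi-square of 77.3 per degree of freedom). The reference genome is that of C57BL/6J, and whether reads from CAST chromosomes were lost on it was not tested.

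Lipid droplets are stores of neutral lipid under a coat of perilipins. In the cortex of the adrenal gland the stored lipid is mostly cholesterol ester, the raw material of steroid hormones, whereas in fat cells it is triglyceride. Triglyceride is broken down in steps, first by Pnpla2 (adipose triglyceride lipase), then by the hormone-sensitive lipase Lipe, and last by Mgll. Abhd5 (CGI-58) sits on perilipin-coated droplets until it is released to activate Pnpla2, and G0s2 blocks Pnpla2 directly.

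All 8 cortex markers, all 8 adipocyte markers and all 7 brown adipocyte markers checked were above 1 TPM (a level divided by transcript length and scaled to a fixed sum) in both libraries. Summed, the cortex markers, which include Star, Cyp11a1 and Hsd3b1, had 18692 TPM in animal 2 and 16243 TPM in animal 1. For the adipocyte markers, led in the list by Adipoq, Cfd and Fabp4, the sum was 2919 TPM in animal 2 against 2464 TPM in animal 1. For the brown adipocyte markers, which include Ucp1, Cox8b and Cidea, it was 1287 TPM in animal 2 against 659.8 TPM in animal 1. Transcripts of fat cells therefore stood beside those of the cortex in both samples. Several of the coat and lipase genes are known from fat cells, and in a bulk sample the RNA of either source, and fewer cells or less RNA per cell, cannot be told apart.

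Of the 55536 annotated genes, 12843 had 1 TPM or more in both libraries. All 10 coat and lipase genes were among them, at 20.04 TPM or more in each library. Pnpla2 was the most abundant, at 314 TPM in animal 2 and 196 TPM in animal 1 (255 ± 83.3, mean ± SD, n = 2 here and below). That placed it at rank 172 of the 22015 nuclear protein-coding genes by mean TPM. Plin1, at rank 262, had 196 TPM in animal 2 and 162 TPM in animal 1 (179 ± 23.7). Plin2, at rank 362, had 161 TPM in animal 2 and 122 TPM in animal 1 (141 ± 28.1). In both libraries of the first quantification, which gave these values, the order was Pnpla2, Plin1, Plin2, Cidec, Mgll and G0s2, with the other 4 genes below it in changing order. The second quantification, a separate estimate from the same reads, began with Pnpla2, Cidec, Plin1, Plin2 in animal 2 and Pnpla2, Plin1, Cidec, Plin2 in animal 1. The TPM ranges of the libraries overlapped between each pair of neighbours among Plin4, Abhd5, Plin5 and Plin3. The range of Plin3, 20.04 to 22.9 TPM, did not overlap those of Plin4, 27.0 to 32.1 TPM, and Abhd5, 25.2 to 31.4 TPM. The ranges also overlapped between Plin2 and Cidec and between Mgll and G0s2, but not when TPM was rescaled to the nuclear protein-coding genes. Both pairs kept 1 order within each library of the first quantification.

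**Figure D1:**
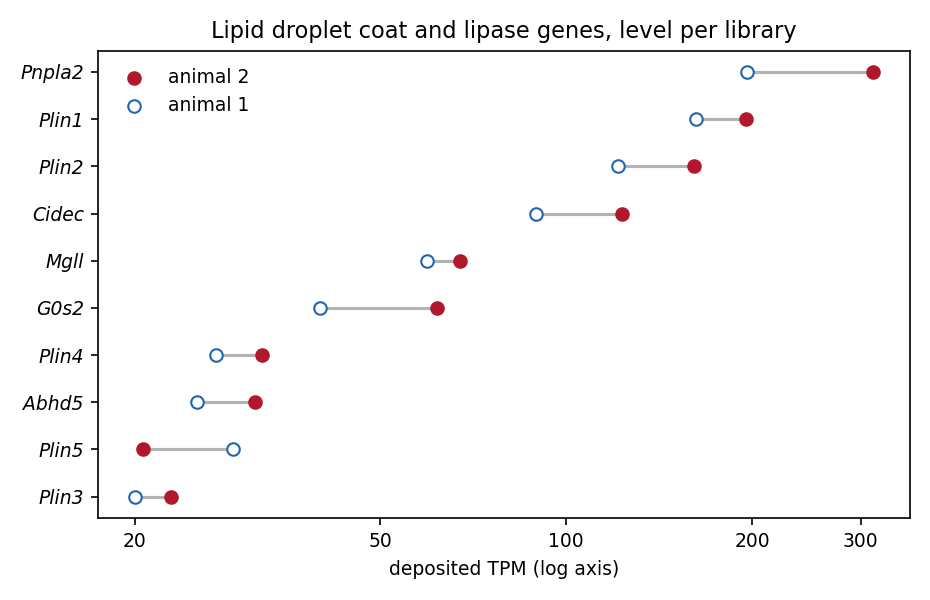
Deposited TPM of each gene on a log axis, with animal 2 as filled points and animal 1 as open points, ordered by the mean. Plin5 is the 1 gene whose animal 2 value, 20.7 TPM, lies below its animal 1 value, 28.8 TPM.

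Between the animals 9 of the 10 genes had a ratio over 1, as had 49.0% of all genes with a mean of at least 100 counts, and Plin5 was lower in animal 2. The ratio of scaled expected counts, animal 2 over animal 1, had a median log2 value of 0.19 over the 10 genes, against -0.01 over the 12171 genes with a mean of at least 100 counts, a minimum that all 10 genes passed. None of the 10 was past 1.5-fold in either direction, where 2.51% of those 12171 genes were past it as higher and 3.12% as lower. At 1.25-fold, a limit chosen after the values were seen, 3 were higher (9.66% of all genes) and 1 was lower (11.8% of all genes). The 95% interval of the ratio lay above 1 for 8 genes and below 1 for Plin5, but so it did for 27.5% and 26.8% of all genes, since at these depths counting error is small. These intervals are exact Clopper-Pearson intervals of counting error alone, and PCR reads are not independent molecules. With 2 samples of 1 group no test between them was made, and the 2 libraries give no estimate of how such ratios vary among animals.

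**Figure D2:**
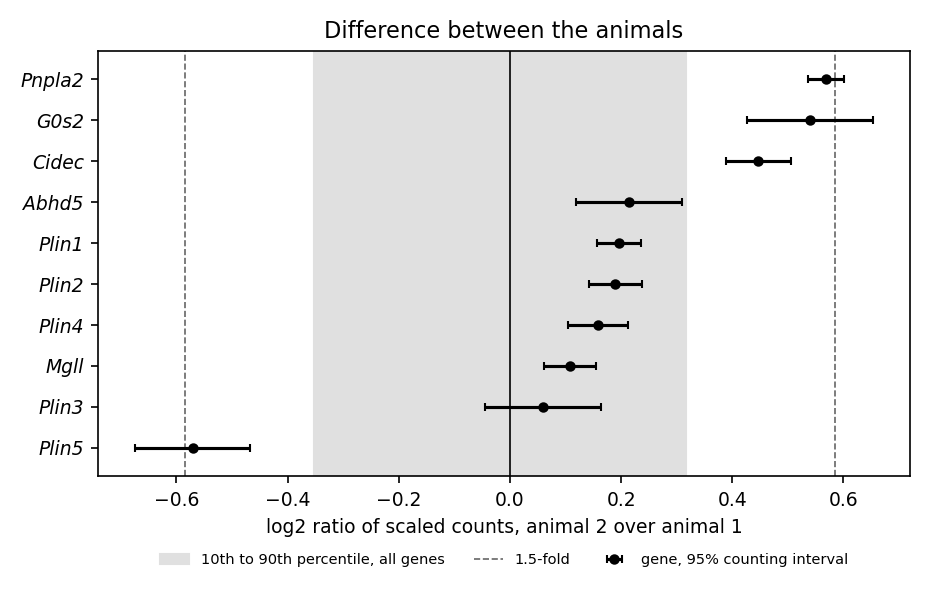
Log2 ratio of scaled counts, animal 2 over animal 1, with 95% counting intervals, the band from the 10th to the 90th percentile of all genes with a mean of at least 100 counts, and dashed lines at 1.5-fold. Pnpla2, G0s2 and Cidec lie above the band, from -0.35 to 0.32, and Plin5 lies below it.

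The perilipins together had 432 TPM in animal 2 and 359 TPM in animal 1 (396 ± 51.6). Plin1 coats the large droplets of fat cells and holds lipases off the lipid until it is phosphorylated. It lies on chromosome 7 from 79720218 to 79732903 (mm10, minus strand, as for all positions here in that build). It was the leading perilipin of both libraries, with 45.2% of the perilipin TPM in animal 2 and 45.1% in animal 1. It had 10917 expected counts in animal 2 and 9481 in animal 1 (count ratio 1.15, interval 1.11 to 1.18). The libraries gave Plin1 nearly the same share of the family even though its TPM differed. The adipocyte markers beside it had ratios of 1.13 for Adipoq, 0.959 for Cfd and 1.16 for Fabp4, with the other 5 from 0.313 for Lep, which is 3.19-fold lower in animal 2, to 1.41 for Lpl, and their part in the level of Plin1 was not tested.

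Plin2, the perilipin of most cells that are not fat cells and an abundant coat in steroid-making cells, lies on chromosome 4 from 86648386 to 86670060 on the minus strand. It took 37.3% of the perilipin TPM in animal 2 and 33.8% in animal 1. Plin1 stood at 1.21 times Plin2 by TPM in animal 2 and 1.33 times in animal 1. Plin2 had 7732 expected counts in animal 2 and 6744 in animal 1 (count ratio 1.14, interval 1.10 to 1.18), close to that of Plin1. Its counts were the only ones of the 10 genes that were not whole, as arises when reads are divided among annotated genes. As it is a coat gene known from steroid-making cells, the bases before its annotated start are shown (chr4:86670061-86670309, minus strand, RefSeq sequence on GRCm38.p6). Capitals mark the match to AGGTCA, the half-site of nuclear receptors, here read on the other strand.
Plin2: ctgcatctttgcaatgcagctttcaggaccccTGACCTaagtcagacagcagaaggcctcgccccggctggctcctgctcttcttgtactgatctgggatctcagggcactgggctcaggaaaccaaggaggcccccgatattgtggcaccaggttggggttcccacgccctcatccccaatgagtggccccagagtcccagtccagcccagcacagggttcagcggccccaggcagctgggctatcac

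Plin3, Plin4 and Plin5 lie on the minus strand of chromosome 17. Plin3 (TIP47), which is found in the cytosol and on new droplets and is made in most tissues, spans 56277476 to 56292873. It was the scarcest by mean, with 22.9 TPM in animal 2 and 20.04 TPM in animal 1 (21.45 ± 1.99), and its ratio of 1.04 had an interval from 0.969 to 1.12. Plin4, which covers young droplets of fat cells, spans 56100591 to 56109803. It had 32.1 TPM in animal 2 and 27.0 TPM in animal 1, and a ratio of 1.12 (1.08 to 1.16). Its transcript is long, so it took 21.8% of the perilipin counts in animal 2 and 21.4% in animal 1 but only 7.43% and 7.52% of their TPM. The counting interval of Plin3 thus held 1, and that of Plin4 lay above 1, with a ratio near those of Plin1 and Plin2.

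Plin5, the perilipin of tissues that burn fat such as heart, muscle and brown fat, which ties droplets to mitochondria, spans 56111601 to 56117596, with 1797 bases between it and Plin4. It was the 1 gene of the set that was lower in animal 2. It had 1287 expected counts and 20.7 TPM in animal 2, against 1902 expected counts and 28.8 TPM in animal 1. Its count ratio was 0.673 (0.627 to 0.723), which is 1.49-fold lower in animal 2. As a share of the perilipin TPM it was 4.78% in animal 2 and 8.02% in animal 1, a difference within each library that needs no scaling between them. Plin2 stood at 7.81 times Plin5 in animal 2 and 4.22 times in animal 1. The brown adipocyte markers went the opposite way from Plin5, since all 7 were higher in animal 2 and Ucp1 was 2.05-fold higher. Markers of other tissues went the same way as Plin5: all 5 chromaffin and all 4 liver markers were lower in animal 2, and 3 of the 4 kidney markers were at 0 counts there. The part of these tissues in the value of Plin5 was not tested.

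**Figure D3:**
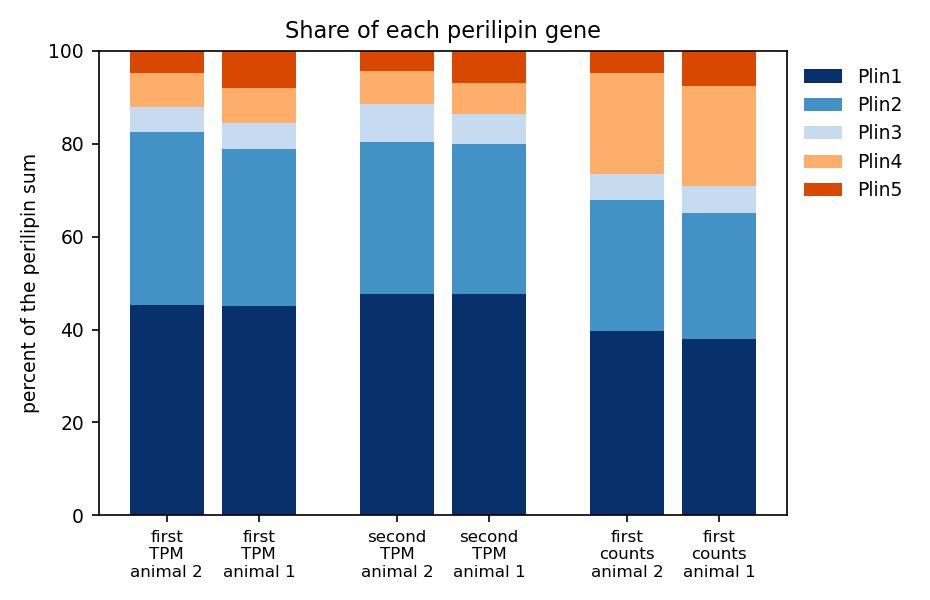
Percent of the perilipin sum in each perilipin gene, for TPM of the first quantification, TPM of the second and expected counts of the first, with animal 2 left of animal 1 in each pair. Plin5 has the smaller share in animal 2 by each measure, and Plin1 leads by each.

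The 2 annotated transcripts of Plin5 have the same coding sequence in the annotation and differ in where they start, 298 bases apart, and they share a run of 1887 of their 1986 bases. The first quantification assigned the lower value of Plin5 in animal 2 to the transcript from the upstream start. There, Plin5-201 had 519 expected counts in animal 2 and 1112 in animal 1 (2.15-fold lower), while Plin5-202 had 768 and 790 counts (ratio 0.968). In the second, Plin5-201 had 1091 estimated counts in animal 2 and 1737 in animal 1 (1.63-fold lower), and Plin5-202 had 168 and 174 (ratio 0.944). The quantifications did not give the same split: Plin5-201 held 40.3% of the gene in animal 2 and 58.5% in animal 1 in the first, but 86.7% and 90.9% in the second. Outside the shared run each model has only 99 bases, so both splits depend on the reads that reach those bases. In the second, most of the gene was also assigned to 1 model. Neither quantification therefore settles which model differed. This look at the transcripts was chosen after their values were seen. The bases before each start are shown because the models differ in where they start. The first run is chr17:56117597-56117798 and the second chr17:56117299-56117501, which lies in the first intron of Plin5-201, both on the minus strand, in RefSeq sequence on GRCm38.p6, with capitals for AGGTCA.
Plin5-201: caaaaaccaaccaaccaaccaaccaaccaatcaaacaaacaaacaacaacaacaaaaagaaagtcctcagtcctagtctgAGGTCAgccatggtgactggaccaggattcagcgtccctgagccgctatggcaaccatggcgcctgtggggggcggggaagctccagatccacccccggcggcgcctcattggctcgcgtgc
Plin5-202: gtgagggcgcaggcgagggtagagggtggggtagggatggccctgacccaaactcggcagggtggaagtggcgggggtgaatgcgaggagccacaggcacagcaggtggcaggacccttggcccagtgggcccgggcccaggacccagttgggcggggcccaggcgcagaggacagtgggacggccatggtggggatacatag

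Across the 13 RefSeq promoter windows of the 10 genes, AGGTCA on either strand was found in 4, those of Plin2 and Abhd5 and both of Plin5, where 16.3% of all 32851 windows hold it. The match in the second Plin5 window lies past the start, outside the run shown. DR1, the direct repeat of AGGTCA with 1 base between that PPAR binds with RXR, was in 0 windows (0.0396% of all), as were CAAGGTCA, the site of the steroidogenic factor NR5A1 (1.56% of all), and TGACGTCA, the cAMP response element (1.79% of all). TATAAA was also in 0 windows (13.6% of all), and GGGCGG was in 9 (35.7% of all). CACGTG was in 2 windows (7.15% of all), of which that of Plin2 crosses the start, and CCAAT was in 4 (37.4% of all). Both strands were searched, CAAGGTCA and DR1 contain AGGTCA, and a match or its absence in these windows is a description of letters only.

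The lipase of the first step was the gene with the highest ratio of the 10. Pnpla2 lies on chromosome 7 from 141455198 to 141460743 on the plus strand and had 18357 expected counts in animal 2 and 12316 in animal 1. Its ratio was 1.48 (1.45 to 1.52). G0s2, its inhibitor, lies on chromosome 1 from 193272161 to 193273217 on the minus strand and had nearly the same ratio. G0s2 had 1572 expected counts and 61.7 TPM in animal 2, against 1076 counts and 39.9 TPM in animal 1 (count ratio 1.45, interval 1.34 to 1.57). By TPM, Pnpla2 stood at 5.09 times G0s2 in animal 2 and 4.92 times in animal 1. In the second quantification that ratio was 7.88 in animal 2 and 5.52 in animal 1, so the pair was less even there. G0s2 lies wholly within the span of Lamb3 on the opposite strand, which had 38 counts in animal 2 and 31 in animal 1.

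Abhd5, the activator of Pnpla2, lies on chromosome 9 from 122351608 to 122381524 on the plus strand. It had 31.4 TPM in animal 2 and 25.2 TPM in animal 1 (28.3 ± 4.36), and a count ratio of 1.16 (1.09 to 1.24). By TPM, Pnpla2 stood at 10.01 times Abhd5 in animal 2 and 7.78 times in animal 1. Mgll, the lipase of the last step, lies on chromosome 6 from 88724412 to 88828360 on the plus strand. It had 67.2 TPM in animal 2 and 59.4 TPM in animal 1 (63.3 ± 5.51), and a count ratio of 1.08 (1.04 to 1.11). Pnpla2 stood at 4.67 times Mgll by TPM in animal 2 and 3.30 times in animal 1. The lipase of the first step was thus more abundant than its activator, its inhibitor and the last lipase in both libraries. Its excess over Abhd5 and Mgll was larger in animal 2.

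Cidec, which makes droplets of fat cells fuse and grow, lies on chromosome 6 from 113424634 to 113435760 on the minus strand. It had 123 TPM in animal 2 and 89.5 TPM in animal 1 (106 ± 23.6). Its 5567 expected counts in animal 2 and 4065 in animal 1 gave a ratio of 1.36 (1.31 to 1.42). Against Plin1, the coat it is known to work with, it stood at 0.629 by TPM in animal 2 and 0.552 in animal 1 in the first quantification. In the second this was 1.15 in animal 2 and 0.751 in animal 1, so which of Cidec and Plin1 was the more abundant in animal 2 depended on the quantification. Cidea, its relative in brown fat, had 169 TPM in animal 2 and 99.6 TPM in animal 1 and was 1.59-fold higher in animal 2.

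The leading transcript models of Pnpla2 and Abhd5 were ones that the annotation marks as targets of nonsense-mediated decay, the removal of mRNAs with an early stop codon. This held for both genes in both libraries and both quantifications, so for 2 of the 10 genes, where it held for 0.967% of 13334 nuclear protein-coding genes (at 1 or more in both libraries when TPM is rescaled to such genes), and for 1.60% in the first quantification alone. Pnpla2-201 had 66.4% of the gene's TPM in animal 2 and 56.6% in animal 1 in the first quantification, and 38.7% and 46.3% in the second. Abhd5-201 had 62.5% in animal 2 and 55.2% in animal 1 in the first, and 69.5% and 55.3% in the second. Each has an extra second exon, of 82 bases in Pnpla2 (chr7:141456568-141456649) and of 50 bases in Abhd5 (chr9:122363815-122363864). The GENCODE M21 transcript sequence is shown from the first base of that exon to the stop codon, in capitals, which in Abhd5 lies in the next exon, after 70 codons of Pnpla2-201 and 38 of Abhd5-201.
Pnpla2-201: gtgatcttgagcagctagaacaaTGA
Abhd5-201: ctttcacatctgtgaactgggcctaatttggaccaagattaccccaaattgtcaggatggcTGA

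Other features of the same models bear on these shares. Pnpla2-201 also holds an in-frame exon of 168 bases that the coding model Pnpla2-202 lacks. The only complete coding model with that exon, Pnpla2-203, ends 651 bases farther on. Pnpla2-203 had 3.96% of the gene in animal 2 and 9.40% in animal 1 in the first quantification, and 0.561% and 1.74% in the second. Models with the exon of 168 bases took 84.8% in animal 2 and 79.3% in animal 1 in the first quantification, and 53.8% and 71.7% in the second. Likewise the complete coding models of Abhd5, Abhd5-202 and Abhd5-204, end 1699 bases beyond Abhd5-201. Together they had 32.9% in animal 2 and 35.2% in animal 1 in the first quantification, and 25.1% and 27.8% in the second. The decay models thus differ from the complete coding ones in these features as well as in the extra exon, and which of them drew the reads was not tested.

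In the first quantification the difference of Pnpla2 between the animals lay mainly in Pnpla2-201, with 13422 expected counts in animal 2 and 7571 in animal 1 (ratio 1.76). In the second Pnpla2-201 also had the largest difference in counts, with 11554 estimated counts in animal 2 and 7531 in animal 1. Its ratio there was 1.498, near that of the whole gene (log2 ratio 0.54). Pnpla2-207 had 2370 estimated counts in animal 2 against 304 in animal 1 (ratio 7.60). Pnpla2-203 was lower in animal 2 by both, at ratios of 0.633 and 0.577. Pnpla2-202, the complete coding model without the exon of 168 bases, had 2405 and 2213 counts (ratio 1.08), and 0.997 in the second quantification. Pnpla2-206, a partial coding model, had 14.1% of the gene in animal 2 and 13.3% in animal 1 in the first quantification (ratio 1.59). In the second it had 10.3% and 12.6% (ratio 1.47). Of Abhd5, Abhd5-201 had a ratio of 1.32 and Abhd5-204 of 1.10, against 1.41 and 1.00 in the second quantification. The retained-intron model Pnpla2-207 reached 22.8% in animal 2 in the second quantification, against 5.43% in animal 1 there and 1.57% and 1.69% in the first. Pnpla2-204 and Pnpla2-205, at up to 11.01% and 15.6% in the second quantification, had 0.34% or less in the first, and Abhd5-205 ranged from 0 to 12.6% over the 4 values.

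**Figure D4:**
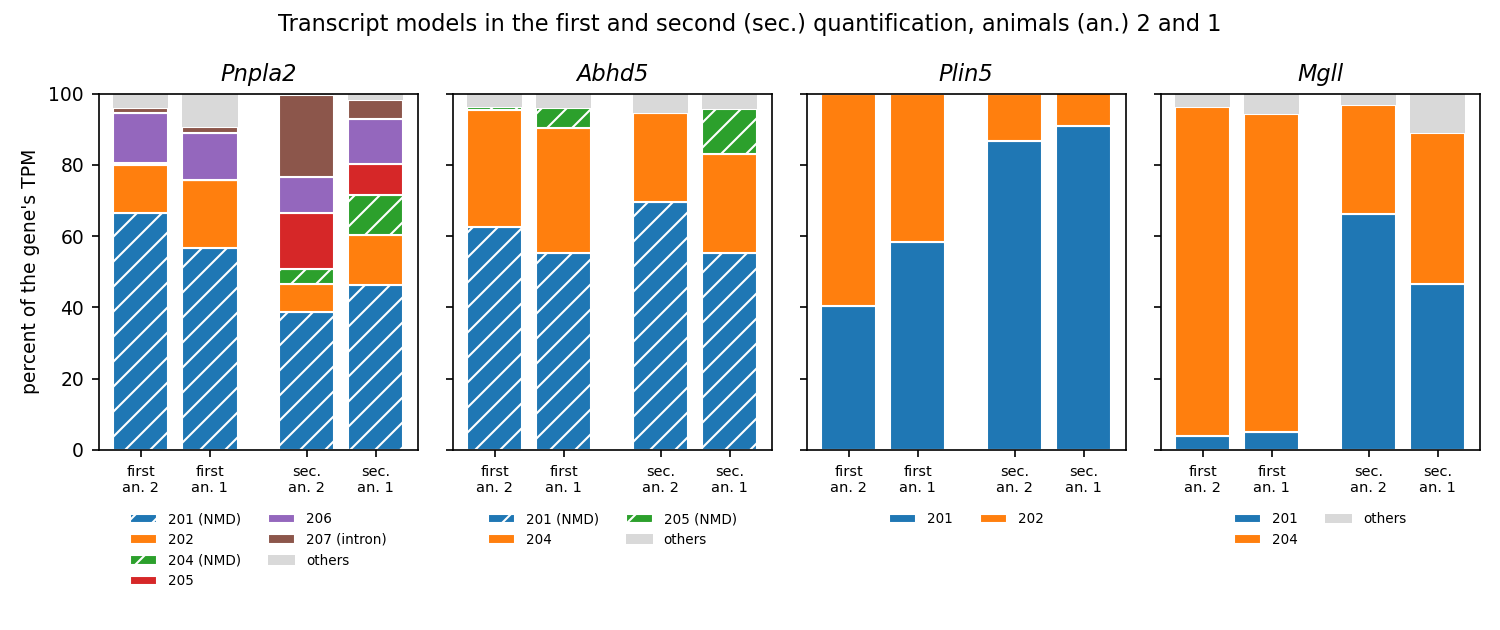
Percent of each gene's TPM in its transcript models, for Pnpla2, Abhd5, Plin5 and Mgll, in the first and second quantification with animal 2 left of animal 1; hatched bars are models annotated as targets of nonsense-mediated decay, and models always under 10% are pooled as others. The hatched 201 model leads Pnpla2 and Abhd5 in all 4 columns, whereas the leading model of Mgll changes with the quantification.

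Of the other genes, Plin1 and Plin2 kept 1 leading transcript throughout, and Plin3, Plin4, Plin5, Mgll and Cidec did not. Of the 9 genes with more than 1 transcript, 5 did not keep 1 leading transcript over both libraries and both quantifications, where this was so for 42.4% of 12071 genes. Between the libraries the leading transcript differed for Plin5 in the first quantification (16.8% of those genes) and for Plin4 in the second (23.0%). Mgll-204 had 92.3% of the gene in animal 2 and 89.1% in animal 1 in the first quantification, but 30.4% and 42.2% in the second, where Mgll-201 led with 66.3% in animal 2 and 46.6% in animal 1. These models share 3517 bases up to the 3' end and differ in their first exon. Plin4-202 held 100% in the first quantification and 53.3% and 44.5% in the second, but Plin4-201 is contained in it except for 1 base, so the split of Plin4 carries no information. Plin3 split between Plin3-201, with 50.8% in animal 2 and 52.7% in animal 1 in the first quantification and 30.9% and 38.7% in the second, and the partial model Plin3-202, which starts 2362 bases farther upstream.

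Plin1-206 led Plin1 throughout, with 51.97% in animal 2 and 42.7% in animal 1 in the first quantification and 48.3% and 33.3% in the second. The partial model Plin1-205 had 26.5% to 33.4% and Plin1-204 had 9.08% to 17.1% over the 4 values. Plin1-201 was the lower in animal 2 by both methods, with 0% in animal 2 and 12.6% in animal 1 in the first quantification and 3.00% and 18.9% in the second. Plin2-201 led Plin2 with 73.6% in animal 2 and 83.2% in animal 1 in the first and 82.5% and 72.6% in the second. The short models Plin2-203, Plin2-207 and Plin2-208 reached 10.3%, 22.0% and 23.8% at most, each in a single library and quantification. Cidec-202 led Cidec in the first quantification, with 71.3% in animal 2 and 51.5% in animal 1, and the partial model Cidec-204, of 376 bases, led in the second, with 42.6% and 41.7%. Cidec-201 and Cidec-203 took 3.71% to 21.7% and 14.8% to 21.5% over the 4 values. G0s2 has 1 transcript.

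Gene levels were closer between the quantifications than the transcript splits. With TPM rescaled to the nuclear protein-coding genes, second over first ratios of 9 of the 10 genes lay within 1.5-fold in both libraries. Cidec was the exception, with 575 in the second quantification and 345 in the first in animal 2 (ratio 1.67), and 398 and 282 in animal 1 (ratio 1.41). Past 1.5-fold higher were 4.79% of 13334 genes in animal 2 and 3.36% in animal 1, and past 1.5-fold lower 4.72% and 3.94%. By counts the second quantification gave Cidec 1.09 times the first in animal 2 and 1.06 times in animal 1, so the gap was smaller by counts than by TPM, which divides by length. G0s2, with 1 transcript, had 0.772 of its first count in animal 2 and 0.865 in animal 1.

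Among 32 other genes of droplets and neutral lipid, 27 had a mean of at least 100 counts, and 19 of them had a ratio over 1 and 8 a ratio under 1. Their median log2 ratio was 0.21, near the 0.19 of the coat and lipase genes. Past 1.5-fold 3 were higher, where 2.51% of all genes were, and 0 were lower, where 3.12% were. The 3 were Cidea, Pparg, the receptor that directs fat cell genes, and Ppara, the receptor that directs fat burning. Pparg had 29.9 TPM in animal 2 and 12.6 TPM in animal 1, and was 1.79-fold higher. Ppara had 12.9 TPM in animal 2 and 4.85 TPM in animal 1, and was 2.39-fold higher.

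The most abundant of that list was Soat1, which makes cholesterol ester, with 485 TPM in animal 2 and 361 TPM in animal 1 and a ratio of 1.27. Agpat2, an enzyme of triglyceride synthesis, had 205 TPM in animal 2 and 133 TPM in animal 1 (ratio 1.42). Acsl1, which activates fatty acids, had 215 TPM in animal 2 and 106 TPM in animal 1 (ratio 1.47). Acsl4, which favours arachidonic acid and is abundant in steroid-making cells, had 149 TPM in animal 2 and 148.5 TPM in animal 1. Its count ratio was 0.941, with an interval from 0.925 to 0.958. The hormone-sensitive lipase Lipe, which acts between Pnpla2 and Mgll and also frees cholesterol from its esters in the adrenal, had 129 TPM in animal 2 and 92.5 TPM in animal 1 (count ratio 1.28, interval 1.25 to 1.32). Lipe therefore lay between Pnpla2 and Mgll both in level and in ratio.

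The ratios of other cell markers stood beside these values as follows. Of 8 cortex markers 6 were higher in animal 2, at a median log2 of 0.14, and Star, Cyp11a1 and Hsd3b1 had ratios of 1.11, 0.866 and 1.18. Of 8 adipocyte markers 6 were higher, with a median of 0.16. All 7 brown adipocyte markers were higher, with a median of 1.04, and Ucp1, Cox8b and Cidea were 2.05-, 1.89- and 1.59-fold higher. All 5 chromaffin markers were lower in animal 2, with a median of -0.32 and ratios of 0.826, 0.811 and 0.676 for Th, Dbh and Pnmt. Of 5 macrophage markers 4 were lower, and their sum was 118 TPM in animal 2 against 123 TPM in animal 1, with Lyz2, C1qa and C1qb written first in the list. The 4 liver markers, Alb, Ahsg, Fgb and Apoa1, had a sum of 107 TPM in animal 2 against 168 TPM in animal 1, and the 4 kidney markers, among them Kap, Slc34a1 and Umod, of 0.18 TPM in animal 2 against 19.7 TPM in animal 1, with 3 of them at 0 counts in animal 2. Pnpla2, G0s2 and Cidec, at log2 ratios of 0.57, 0.54 and 0.45, lay between the medians of the cortex or adipocyte markers and that of the brown adipocyte markers, and Plin5, at -0.57, lay below that of each list but those of liver and kidney. The part of any of these tissues in the ratios was not tested.

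**Figure D5:**
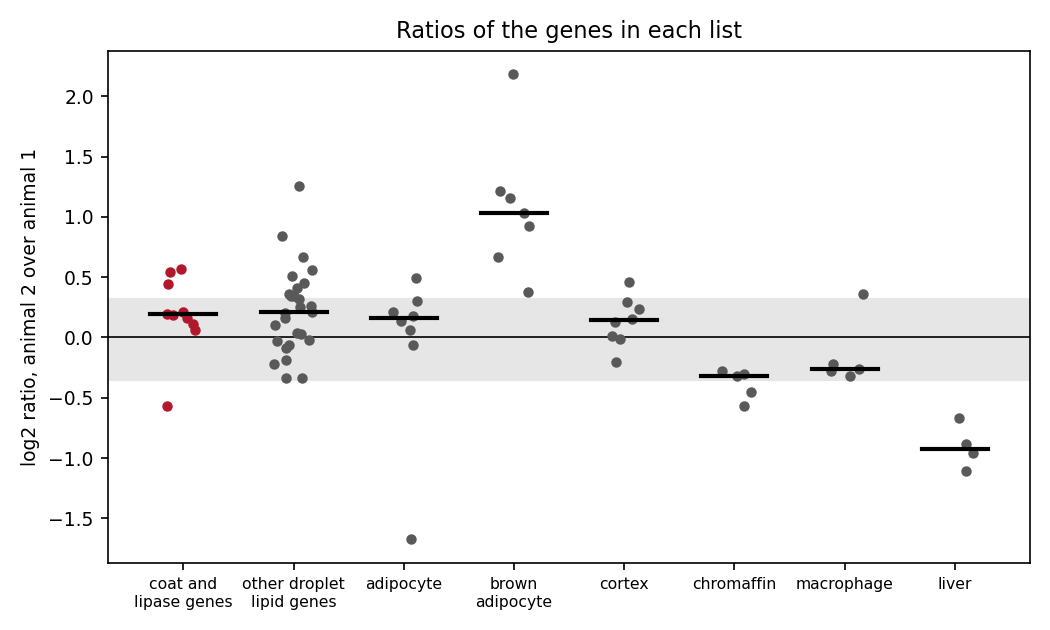
Log2 ratios, animal 2 over animal 1, of the genes with a mean of at least 100 counts in each list (points) with the list's median (bars) and the band from the 10th to the 90th percentile of all genes; Cidea is in 2 lists, and the kidney markers, below the axis, are not drawn. The brown adipocyte markers all lie above 0, at a median of 1.04, and the coat and lipase genes, at a median of 0.19, lie near the other droplet genes.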

How the data were processed

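Total RNA from adrenal gland tissue was sequenced in 2 libraries, and 3 tables were deposited for each library. The build was mm10 with the GENCODE M21 annotation, per the deposited file list. In the first quantification the authors give each gene and transcript an expected count, made from alignments to the transcriptome, per the deposited file list. In the second the authors give each transcript an estimated count, made from reads with an index. Neither need be whole. The deposited TPM values divide by transcript length and have a fixed sum over all rows, and the deposited percent gives each transcript's part of its gene's TPM. Column names are those of RSEM and kallisto, per the file headers, but versions and settings are not given in the sources used here. In the first quantification length minus effective length was 99 bases for each transcript with counts.

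Rows that name no gene, with 0.760% of counts in animal 2 and 0.909% in animal 1, stayed out of library sizes. Expected counts were rounded for scaling with edgeR 4.0.16 (TMM) over genes with a mean of at least 10 counts (factors 0.978 in animal 2 and 1.02 in animal 1) and used as deposited for ratios, with a prior of 0.5 counts. Intervals are at 95%. The second quantification lists no scaffold genes, which were left out of comparisons with it. The scaling and the ratios of gene counts were tested on simulated counts. The coverage of the intervals, the transcript shares, the comparison of the quantifications and the sequence steps were not. Tests between groups were not made, as there is 1 group.

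The members, lists and alternatives were chosen with earlier results of these data known. All members are named, and of the other droplet genes the 4 most abundant, Lipe and those past 1.5-fold. Of marker lists the first 3 genes are named, with Lep and Lpl, the ends of the adipocyte range, and the liver marker Apoa1 added. Of transcripts, those with 10% or more of their gene in any library and quantification are named. Pnpla2-203 and Abhd5-202, which lie below that, were added as complete coding models. No gene of like pattern is named, since 2 libraries give 1 difference only.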

Additional observations from a re-analysis of the deposited data

How the results depend on the processing

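The scaling between the libraries set how many of the 10 genes were past 1.5-fold, which was 0 as reported. It was 3 with ERCC spike-in counts (Pnpla2, G0s2 and Cidec higher), 2 with deposited TPM (Pnpla2 and G0s2 higher), and 1 each with total gene counts, with cortex marker counts and in the second quantification (Plin5 lower). The share of all genes past 1.5-fold was not counted under these alternatives, so these counts have no background beside them. A fold of 1.25, added after seeing the data, gave 4 under the main scaling. Of these, 3 were higher, where 9.66% of all genes were, and 1 was lower, where 11.8% were. The scalings moved the median of all genes to 0.19 with spike-ins, 0.11 with TPM and -0.14 with cortex markers, and the median of the 10 genes to 0.39, 0.29 and 0.054. Relative to the median of all genes, Plin5 was lower and Pnpla2, G0s2 and Cidec were higher with deposited TPM and in the second quantification. The alternatives that only change the scale between the libraries shift all genes alike, so they could not alter this. A prior of 5 hardly changes ratios at such counts. Plin3 turned to -0.01 with total gene counts, and Plin3 and Mgll to -0.08 and -0.03 with cortex markers. DESeq2 size factors, no filter and a prior of 5 changed no count.

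The level of Pnpla2 was 749.5 on the scale of nuclear protein-coding genes and 495 TPM in the second quantification, and 196 to 314 TPM with 1 library left out. Plin1 held 38.9% of the perilipin counts and 47.6% of their TPM in the second quantification, and 45.1% to 45.2% with 1 library left out. Plin5 held 4.78% to 8.02% with 1 library left out. The ratio of G0s2 to Pnpla2 was 0.0865 by counts and 0.154 in the second quantification, against 0.196 to 0.203 with 1 library left out. The number of leading decay models was 2 in each of these settings. No paired analysis was possible because there is 1 group. Depth limits none of the gene levels, while 2 libraries, with labels that conflict on the animals, limit each comparison.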
